A study of Rattus norvegicus with 30 samples.

Results

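The 10 arrays of predator-scent-exposed female rats fell into 5 Pmch-high and 5 Pmch-low dissections of the amygdala. The probe of Pmch, which encodes the precursor of melanin-concentrating hormone, was the value they were chosen by: its 10 log2 intensities were sorted and divided at the widest gap between neighbours. These 10 were part of a series of 30 arrays, each from a separate adult Sprague Dawley rat, with 5 rats in each of 6 groups. The 6 groups were unexposed controls, rats with a minimal and rats with an extreme behavioural response to predator scent, each for rats labelled female and rats labelled male. All groups shared strain, age class and tissue, and no allele or drug was given in the labels. The amygdala was dissected on dry ice by anatomical landmarks and kept in RNAlater, so each array holds the RNA of a whole tissue piece.

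Melanin-concentrating hormone is made by neurons of the lateral hypothalamus and zona incerta, which lie medial to the amygdala and are not part of it. Many of these neurons also make the CART peptide, encoded by Cartpt. The orexin peptides, encoded by Hcrt, come from a separate set of neurons mixed with them in the same area. Both sets are known for their part in feeding, sleep and arousal, and their axons reach the amygdala, but the messenger RNA lies mainly in the cell bodies.

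Because tissue was measured in bulk, fewer Pmch cells in a piece and less Pmch RNA per cell cannot be told apart. Sequences before 3 peptide genes with a higher mean in Pmch-high arrays are shown first, to place these genes in the genome. They are the 250 bases before the annotated start of Hcrt, Avp (vasopressin) and Oxt (oxytocin), the last 2 of which were higher only within the minimal response, from RefSeq with the GRCr8 build, 5′ to 3′ on the strand of the gene. Pmch, on chromosome 7 from 24399404 to 24400720, and Cartpt, on chromosome 2 from 32989215 to 32991794, are named only. Capitals mark the matches to 4 motifs searched on both strands, which do not overlap one another here. They are the TATA box TATAAA, its variant CATAAA, the E-box core CACGTG and the nuclear receptor motif TGACCTTG.
Hcrt promoter, chr10:86191525-86191774, minus strand: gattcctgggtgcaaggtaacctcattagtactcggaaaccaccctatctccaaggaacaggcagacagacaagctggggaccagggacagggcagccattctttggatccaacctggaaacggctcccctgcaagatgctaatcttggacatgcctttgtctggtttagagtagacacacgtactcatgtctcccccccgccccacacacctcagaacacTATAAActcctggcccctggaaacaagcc
Avp promoter, chr3:138248523-138248772, minus strand: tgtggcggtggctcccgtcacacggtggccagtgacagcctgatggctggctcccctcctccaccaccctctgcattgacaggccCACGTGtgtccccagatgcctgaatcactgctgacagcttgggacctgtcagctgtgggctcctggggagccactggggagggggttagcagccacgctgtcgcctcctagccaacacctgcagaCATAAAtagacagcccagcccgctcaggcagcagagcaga
Oxt promoter, chr3:138235504-138235753, plus strand: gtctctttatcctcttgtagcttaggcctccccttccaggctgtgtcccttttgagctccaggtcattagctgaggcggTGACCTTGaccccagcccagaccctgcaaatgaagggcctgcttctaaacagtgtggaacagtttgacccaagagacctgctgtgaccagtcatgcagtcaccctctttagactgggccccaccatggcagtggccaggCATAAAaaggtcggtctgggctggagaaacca
TATAAA begins 29 bases before the Hcrt start, and 12.9% of 33469 rat promoter windows of the same length hold it. CATAAA begins 40 bases before the Avp start and 32 bases before the Oxt start, and 11.4% of the windows hold it. CACGTG lies 165 bases before the Avp start and is in 5.59% of the windows, while TGACCTTG lies 171 bases before the Oxt start and is in 1.33%. Avp and Oxt are neighbours on chromosome 3 in opposite orientation.

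Pmch was high in 3 minimal-response and 2 extreme-response arrays. It measured 13.10, 11.21 and 13.73 log2 intensity in female minimal rats 1, 2 and 3, and 13.05 and 11.16 in female extreme rats 3 and 4. It measured 7.55 and 7.80 in female minimal rats 4 and 5, and 8.62, 8.38 and 7.67 in female extreme rats 1, 2 and 5. The value just inside the high set was thus 11.16 and the value just outside it 8.62, a gap of 2.53 log2 units. A second gap of 1.84 log2 units separated the 3 highest arrays, at 13.05 or more, from the other 2 high arrays. The means were 12.45 ± 1.19 (SD, n = 5) in the high set and 8.01 ± 0.47 (SD, n = 5) in the low set, a difference of 4.45 that the rule itself selected and that is given without a test. It was 5.00 within minimal and 3.88 within extreme.

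The 20 arrays that the rule did not use had Pmch between 7.10 and 8.79 log2 intensity, with a median of 7.36. The highest of them was female control 2 at 8.79, followed by male minimal 2 at 8.46. All 5 Pmch-high arrays therefore stood above every other array of the series, and the 5 Pmch-low arrays lay within the range of the 20. By group, the mean Pmch level was 7.80 ± 0.65 in female control, 10.68 ± 2.90 in female minimal and 9.78 ± 2.25 in female extreme (SD, n = 5 each). It was 7.67 ± 0.37 in male control, 7.46 ± 0.57 in male minimal and 7.26 ± 0.16 in male extreme (SD, n = 5 each). High arrays were 3 of 5 in minimal and 2 of 5 in extreme, counts that are given without a test because Pmch chose the sets.

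**Figure D1:**
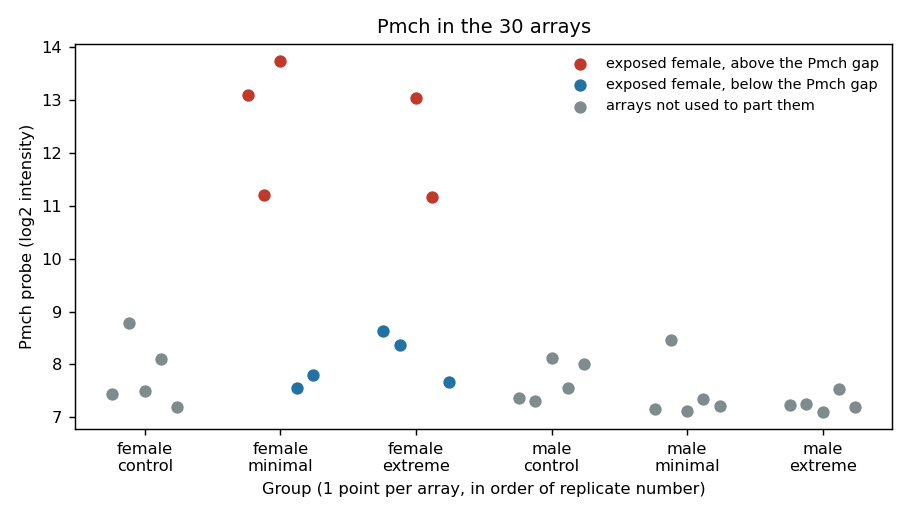
Log2 intensity of the Pmch probe (vertical axis) in the 30 arrays, 1 point per rat, by group. The 5 red points of exposed female rats lie between 11.16 and 13.73, and every other point lies at or below 8.79.

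Across the genome few probes parted the sets. Of 14300 other probes that passed the intensity filter, 2 (0.014%) were higher and 4 (0.028%) lower in every Pmch-high array than in every Pmch-low array with means at least 0.5 log2 units apart, 6 in all (0.042%). Without the size limit, 33 probes (0.231%) were higher and 37 (0.259%) lower in all high arrays. The sets were cut on Pmch in these same arrays, so these counts describe them and are not a test. The probes with means at least 0.5 log2 units higher numbered 91 (0.636%) when overlap was allowed, and 90 (0.629%) were at least that much lower. The median difference over all probes was -0.00184 log2 units.

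Cartpt was the lateral hypothalamic gene that followed Pmch most closely. It measured 8.09, 7.66 and 8.70 log2 intensity in female minimal rats 1, 2 and 3 and 8.15 and 7.75 in female extreme rats 3 and 4. The Pmch-low arrays gave 7.48 and 7.31 in female minimal rats 4 and 5 and 7.09, 6.70 and 6.95 in female extreme rats 1, 2 and 5. The sets did not overlap, and the highest Cartpt array was also the highest Pmch array. The means were 8.07 ± 0.41 and 7.11 ± 0.30 (SD, n = 5 each), a difference of 0.96 log2 units. It was 0.75 within minimal and 1.04 within extreme, and 0.81 to 1.07 when any single array was left out.

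Cartpt was not low in all arrays without Pmch. Among the 20 other arrays its median was 6.83 log2 intensity, but male extreme 2 reached 9.75 with Pmch at 7.26, and male control 3 reached 9.32 with Pmch at 8.13. Both of those arrays also had a high level of Adora2a, the adenosine receptor of striatal indirect-pathway neurons, at 11.69 and 12.02 log2 intensity. Cartpt is also made in the striatum, and whether these Cartpt levels had a striatal source was not tested.

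Hcrt, the orexin precursor, was dimmer. It measured 7.88, 7.12 and 7.98 log2 intensity in female minimal rats 1, 2 and 3 and 7.46 and 7.45 in female extreme rats 3 and 4. In Pmch-low arrays it measured 6.69, 7.12, 7.10, 6.80 and 7.20 in female minimal rats 4 and 5 and female extreme rats 1, 2 and 5. Of the high arrays 4 stood above all low arrays, and female minimal 2 lay among the low ones. The means were 7.58 ± 0.35 and 6.98 ± 0.22 (SD, n = 5 each), a difference of 0.60 log2 units, with 0.76 within minimal and 0.43 within extreme. The highest of the 20 other arrays was female control 3 at 7.15, below those 4 arrays. Only these 4 of the 10 arrays exceeded 7.20, the 60th percentile of an array, so Hcrt lay close to the low end of the scale throughout.

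Lhx1, a LIM-homeodomain transcription factor of several ventral forebrain and diencephalic nuclei, measured 7.14, 7.86 and 7.64 log2 intensity in female minimal rats 1, 2 and 3 and 8.06 and 6.87 in female extreme rats 3 and 4. The Pmch-low arrays lay between 6.64 and 7.10. The high and low sets overlapped through female extreme 4, which also had the lowest Pmch of the high set. The difference of means was 0.61 log2 units, with 0.80 within minimal and 0.45 within extreme. Outside these arrays Lhx1 reached 7.55 in female control 5.

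Like Hcrt and Lhx1, the other 7 lateral hypothalamic genes with a probe did not part the sets without overlap. Nts, the neurotensin precursor, differed by 0.23 log2 units and Gal, the galanin precursor, by 0.09. Without female extreme 2 the Nts difference was -0.05, and without female extreme 1 it was 0.55, while Gal ran from 0.01 to 0.14 without single arrays. Pdyn, whose dynorphin peptides orexin neurons also release, differed by -0.22, with 8.60 log2 intensity in Pmch-low female extreme 1 and 8.67 in Pmch-low female extreme 5. Nptx2, a secreted pentraxin found in orexin neurons, differed by 0.04. Tacr3, the neurokinin B receptor carried by some melanin-concentrating hormone neurons, differed by 0.00, and the transcription factors Lhx9 and Ebf2 by -0.04 each. Over the 10 lateral hypothalamic genes other than Pmch, 6 differences were positive and 4 negative, the median was 0.06, and 1 gene parted the sets without overlap. The mean log2 level over these 10 genes ranged from 7.33 to 7.65 in high arrays, from 7.03 to 7.45 in low arrays and from 6.98 to 7.67 in the 20 other arrays. As a whole list, the lateral hypothalamic genes therefore overlapped between the sets. The distinction rested on Pmch, which chose the sets, on Cartpt, and on Hcrt and Lhx1, which overlapped through female minimal 2 and female extreme 4.

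**Figure D2:**
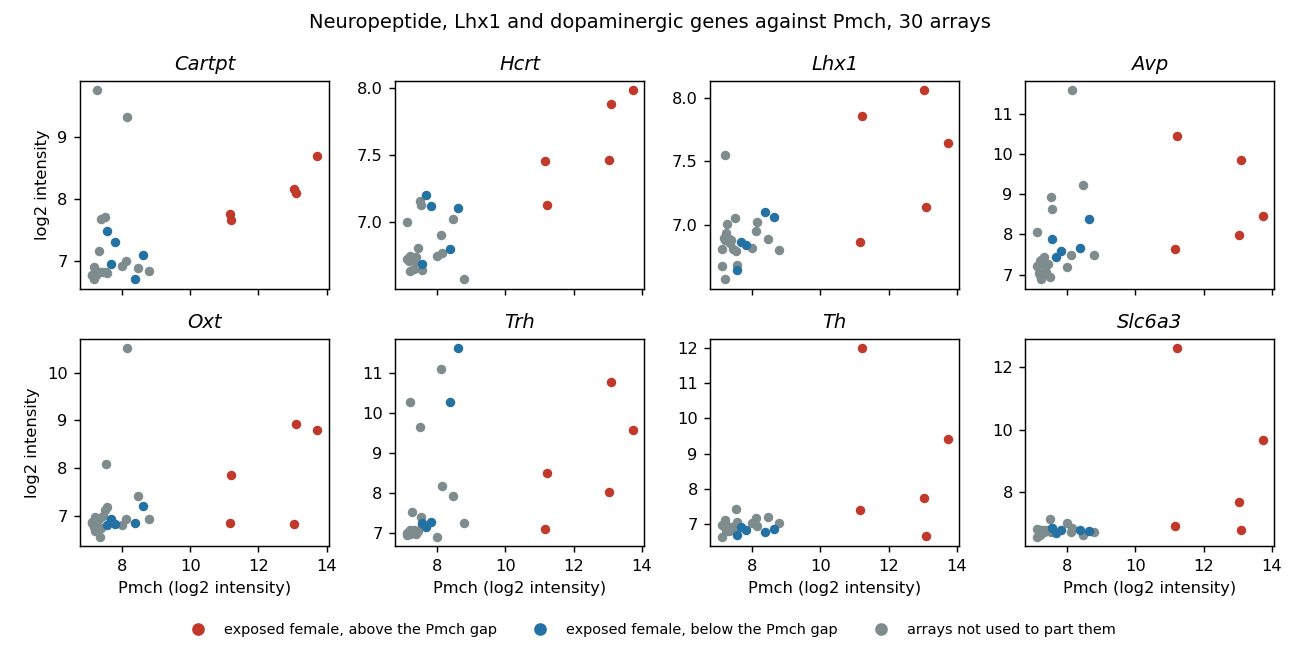
Log2 intensity of 8 genes (vertical axes) against that of Pmch (horizontal axes) in the 30 arrays, 1 point per rat. Cartpt and Hcrt stand higher in most red points, Avp and Oxt are high in only some of them, and Th and Slc6a3 reach 11.99 and 12.60 in a single array.

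The receptors of these peptides were low and similar in both sets. Mchr1, the receptor of melanin-concentrating hormone, lay between 7.09 and 7.20 log2 intensity in Pmch-high arrays and between 6.95 and 7.39 in Pmch-low arrays, a difference of -0.09. The orexin receptors Hcrtr1 and Hcrtr2 differed by 0.33 and -0.15 log2 units. All 3 receptor genes overlapped between the sets.

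Markers of other hypothalamic nuclei were mostly near the low end of the scale, which limits how far the label of hypothalamic tissue can be carried. Of 25 hypothalamic transcription factors and enriched genes with a probe, 10 exceeded the 60th percentile of 7.20 log2 intensity on any of the 10 arrays. Nkx2-1, a factor of the ventral hypothalamus, Rax, a factor of tanycytes, Sim1, a factor of the paraventricular nucleus, and Hdc, the histamine-synthesising enzyme of the tuberomammillary nucleus, exceeded it on 0 of 10. The list had 13 positive and 12 negative differences with a median of 0.02 log2 units, and 0 of its genes parted the sets by 0.5 or more. Its mean log2 level lay between 7.41 and 7.57 in high arrays and between 7.27 and 7.46 in low arrays. The arrays are therefore called Pmch-high here, after the rule, rather than hypothalamic.

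Among the enriched genes, Ahi1 differed by 0.43 log2 units, Resp18, a secretory granule protein of neuroendocrine cells, by 0.41, and Dlk1, an imprinted gene expressed in several hypothalamic nuclei, by 0.37. Dlk1 measured 6.80, 7.74, 7.01, 7.34 and 7.15 log2 intensity in female minimal rats 1, 2 and 3 and female extreme rats 3 and 4, against 6.81 to 6.91 in Pmch-low arrays. Thus 4 of the 5 high arrays exceeded all low ones for Dlk1. Without female minimal 2 its difference was 0.24, and that of Resp18 was 0.25. Mc4r, the melanocortin receptor, differed by 0.25 log2 units, and Nnat by 0.23, with a second Nnat probe at 0.42.

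The magnocellular peptides separated the conditions within the Pmch-high set. Avp measured 9.84, 10.45 and 8.47 log2 intensity in the Pmch-high female minimal rats 1, 2 and 3 but 7.98 and 7.64 in the Pmch-high female extreme rats 3 and 4. Pmch-low arrays gave 7.89 and 7.58 in female minimal rats 4 and 5 and 8.38, 7.67 and 7.44 in female extreme rats 1, 2 and 5. Each high minimal array exceeded every low array, whereas the high extreme arrays lay among the low ones. The pooled difference was 1.08 log2 units, made up of 1.85 within minimal and -0.02 within extreme, and it was 0.69 without female minimal 2.

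Oxt showed the same split by condition. It measured 8.92, 7.86 and 8.81 log2 intensity in female minimal rats 1, 2 and 3, 6.82 and 6.84 in female extreme rats 3 and 4, and 6.81 to 7.20 in the Pmch-low arrays. Only the high minimal arrays stood above all low arrays. The pooled difference was 0.93 log2 units, with 1.71 within minimal and -0.16 within extreme. The order of these 3 arrays differed between the genes: female minimal 2 was the highest for Avp and the lowest for Oxt. The difference between conditions was not tested, because the rule had chosen the sets.

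High Avp and Oxt also occurred without high Pmch. Male control 3 held the highest level of both among the 20 other arrays, at 11.57 log2 intensity for Avp and 10.52 for Oxt, with Pmch at 8.13. This same male control 3 was also the highest of the 20 for Nts, Gal, Nnat, Mc4r and Resp18. In that array the magnocellular peptide genes and other genes of the hypothalamic lists were high. Its Pmch level was the highest of the male controls, but below the 11.16 of the lowest Pmch-high array.

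Trh, the thyrotropin-releasing hormone precursor, did not follow Pmch. Its highest level in the 10 arrays was 11.62 log2 intensity in Pmch-low female extreme 1, followed by 10.77 in Pmch-high female minimal 1 and 10.28 in Pmch-low female extreme 2. The pooled difference of 0.08 log2 units combined 2.35 within minimal with -2.12 within extreme, and it was -0.41 without female minimal 1. Of the remaining peptide genes (Crh, Ghrh, Gnrh1, Kiss1, Ucn3, Vgf, Agrp, Pomc, Vip and Tac3), the one farthest from 0 was Pomc at 0.14 log2 units. Over the 13 peptide genes outside the lateral area, 11 differences were positive and 2 negative, with a median of 0.04.

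**Figure D3:**
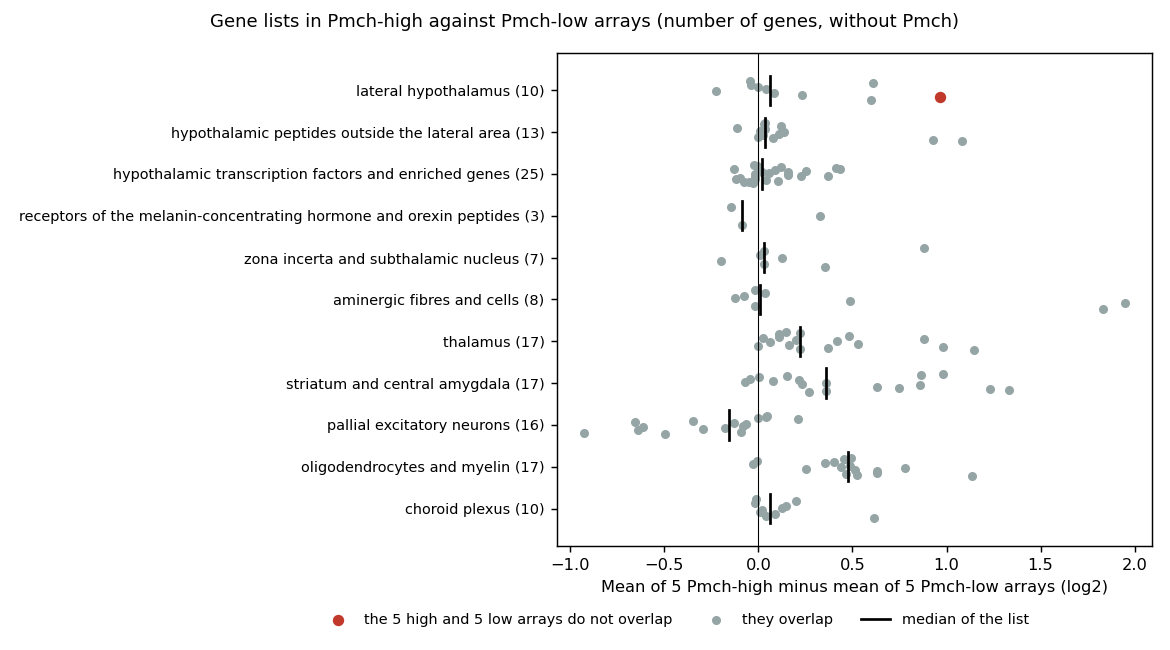
Difference of mean log2 intensity between the 5 Pmch-high and the 5 Pmch-low arrays (horizontal axis) for each gene of 11 lists, 1 point per gene, Pmch left out. Among the lateral hypothalamic genes the red point is Cartpt at 0.96, and the list medians range from -0.15 for pallial neurons to 0.48 for oligodendrocytes.

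The largest mean differences outside Pmch belonged to dopaminergic genes and came from few arrays. Th, tyrosine hydroxylase, measured 6.67, 11.99 and 9.40 log2 intensity in female minimal rats 1, 2 and 3 and 7.75 and 7.41 in female extreme rats 3 and 4, against 6.68 to 6.92 in Pmch-low arrays. Slc6a3, the dopamine transporter, measured 6.80, 12.60, 9.66, 7.70 and 6.95 in the same order, against 6.72 to 6.86. Female minimal 2 was far the highest for both, and female minimal 1, with the second highest Pmch of all, was not raised. The differences were 1.83 log2 units for Th and 1.95 for Slc6a3, and 0.99 for each without female minimal 2.

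Slc18a2, the vesicular monoamine transporter, reached 8.90 log2 intensity in female minimal 2 and lay between 6.78 and 7.14 in the other high arrays. Its difference was 0.49 log2 units, and 0.08 without female minimal 2. Ddc, Dbh, Tph2 and Slc6a4, further genes of dopamine, noradrenaline and serotonin neurons, exceeded 7.20 on 0 of the 10 arrays. The mean log2 level over the 8 aminergic genes ranged from 6.77 to 8.50 in high arrays and from 6.81 to 6.86 in low arrays. Dopaminergic cell bodies lie in the midbrain and in small diencephalic groups, and which of them these levels came from was not tested.

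Besides Cartpt, Grip2 was the gene that stood higher in every Pmch-high array with means at least 0.5 log2 units apart. This PDZ-domain protein binds AMPA-type glutamate receptors. It measured 8.77, 10.37 and 9.24 log2 intensity in female minimal rats 1, 2 and 3 and 9.19 and 8.75 in female extreme rats 3 and 4, against 8.63, 8.26, 8.70, 8.36 and 7.97 in female minimal rats 4 and 5 and female extreme rats 1, 2 and 5. The sets just failed to touch, with 8.75 above 8.70. The difference was 0.88 log2 units, with 1.02 within minimal and 0.62 within extreme, and 0.60 without female minimal 2. Grip2 reached 8.91 in male minimal 3, so the lower part of the high set lay within the range of the 20 other arrays.

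The genes lower in every Pmch-high array by at least 0.5 log2 units were Fkbp9, Tagln, Timp1 and Ifi27. Fkbp9, an endoplasmic reticulum prolyl isomerase, lay between 9.25 and 9.77 log2 intensity in high and between 9.77 and 10.56 in low arrays, with ends that meet only after rounding, a difference of -0.61. Tagln, the smooth muscle actin-binding protein transgelin, lay between 7.49 and 8.32 in high and between 8.36 and 8.80 in low arrays, a difference of -0.53. Timp1, an inhibitor of matrix metalloproteinases, lay between 7.35 and 7.89 against 7.95 to 8.51, a difference of -0.52. Ifi27, an interferon-induced gene, lay between 10.11 and 11.00 against 11.06 to 11.42, a difference of -0.51. All 4 were negative within minimal and within extreme. When single arrays were left out, the remaining sets could not overlap for these genes, so only the size of the difference could change. It stayed at 0.5 or more in 9 of 10 cases for Fkbp9, in 8 for Ifi27, and in 7 each for Tagln and Timp1. With the sets cut at the second gap the differences were -0.33 for Fkbp9, -0.05 for Tagln, -0.25 for Timp1 and -0.10 for Ifi27.

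Further genes parted the sets by less than 0.5 log2 units. Anxa1, which encodes the phospholipid-binding protein annexin A1, was lower by a difference of -0.47, Homer3, a postsynaptic scaffold protein, by -0.38, and Emp1, an epithelial membrane protein, by -0.35. Phyhipl, Dleu7 and Zfp692 were higher by 0.45, 0.41 and 0.34. Vim, the vimentin of ependyma, tanycytes and vessels, differed by -0.65 log2 units with overlap. Female extreme 5 was the Pmch-low array with the lowest Vim, at 10.38, inside the range of 10.17 to 10.54 of the high arrays.

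Genes of neighbouring territories did not follow Pmch in a uniform way. Of 17 thalamic genes 16 were higher on average, with a median difference of 0.22 log2 units and 0 that parted the sets. Within minimal 17 of 17 were positive, and within extreme 5 of 17. Slc17a6, the vesicular glutamate transporter of thalamic and hypothalamic neurons, measured 12.11, 12.42 and 11.86 log2 intensity in female minimal rats 1, 2 and 3 and 13.47 and 10.37 in female extreme rats 3 and 4. It measured 9.83 in each of female minimal rats 4 and 5, but 11.64 and 13.21 in female extreme rats 1 and 2, and 10.00 in female extreme 5. Its difference was 2.30 within minimal and 0.31 within extreme. Prkcd, a kinase abundant in thalamus and central amygdala, differed by 3.11 within minimal and by -0.65 within extreme. Pmch-low female extreme 2 had the highest mean of the thalamic list, at 9.72.

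Calb2, the calretinin gene, measured 7.90, 10.00, 8.45, 8.93 and 8.03 log2 intensity in female minimal rats 1, 2 and 3 and female extreme rats 3 and 4. In the Pmch-low arrays it measured 7.36, 7.63, 7.68, 8.70 and 7.54, so only female extreme 2 overlapped the high set. The difference was 0.88 log2 units, and 0.55 without female minimal 2. Of the 7 genes listed for zona incerta and subthalamic nucleus, Calb2 alone exceeded 0.5, and the list median was 0.03.

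Striatal genes were higher on average in 15 of 17 cases, with a median of 0.36 log2 units, again without parting the sets. Within minimal 15 of 17 striatal genes were positive, with a median of 0.77. Within extreme 8 were positive and 9 negative, with a median of -0.01. Adora2a differed by 2.12 within minimal and by 0.18 within extreme, and Penk, the enkephalin precursor, by 1.76 and 0.36. The highest Adora2a level of the 10 arrays, 12.62 log2 intensity, belonged to Pmch-low female extreme 1. Myelin genes were higher in 15 of 17 cases with a median of 0.48 log2 units, and the direction turned with condition in all of them. Within minimal 17 of 17 were positive, with a median of 1.81, and within extreme 17 of 17 were negative, with a median of -0.63. Mbp, the myelin basic protein, differed by 3.29 within minimal and by -1.09 within extreme. The mean log2 level of the myelin list ranged from 9.67 to 11.23 in high and from 9.38 to 11.47 in low arrays.

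Pallial excitatory neuron genes, which mark cortex and the cortex-like nuclei of the basolateral amygdala, were lower in 13 of 16 cases with a median of -0.15 log2 units. Neurod6 and Fezf2, transcription factors of such neurons, differed by -0.93 and -0.66. Within minimal 4 of the 16 genes were positive, with a median of -0.60. Within extreme 9 were positive and 7 negative, with a median of 0.05. The mean log2 level of the list lay between 7.76 and 8.79 in high and between 7.87 and 8.94 in low arrays. The lowest and the second lowest mean belonged to Pmch-high female extreme 3 and Pmch-low female extreme 2. Ttr, transthyretin of the choroid plexus, reached 14.67 log2 intensity in Pmch-high female extreme 3 and 13.13 in Pmch-low female minimal 5. The contribution of these territories to the differences was not tested.

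**Figure D4:**
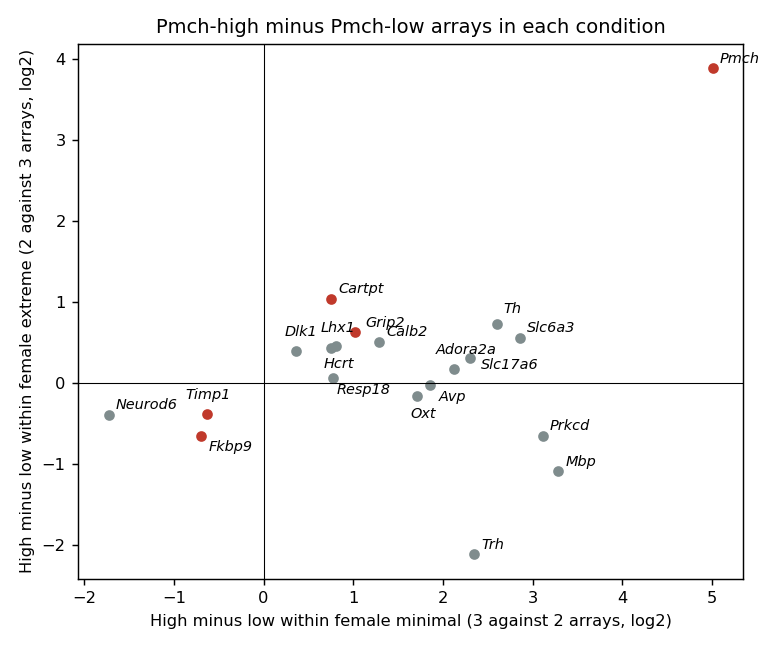
Difference of mean log2 intensity, Pmch-high minus Pmch-low arrays, within female minimal (horizontal axis, 3 against 2 arrays) and within female extreme (vertical axis, 2 against 3 arrays) for 20 genes. Red points did not overlap between the sets, and they lie at 0.75 and 1.04 for Cartpt, whereas Trh and Mbp turn sign between the conditions.

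Within the Pmch-high set Cartpt and Hcrt were ordered much like Pmch, and Lhx1 and Slc6a3 were not. From the highest to the lowest Pmch the arrays were female minimal 3, female minimal 1, female extreme 3, female minimal 2 and female extreme 4. Along that order Cartpt was 8.70, 8.09, 8.15, 7.66 and 7.75 log2 intensity, and Hcrt was 7.98, 7.88, 7.46, 7.12 and 7.45. The 3 arrays with the highest Pmch were also the 3 highest for both genes, for Hcrt by only 7.46 against 7.45. Lhx1 along the same order was 7.64, 7.14, 8.06, 7.86 and 6.87 log2 intensity, highest in the third array. Slc6a3 was 9.66, 6.80, 7.70, 12.60 and 6.95, with its peak in the fourth array. With 5 arrays of which Pmch chose the set, no correlation is given.

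A 2-state pattern of a ribosomal protein probe crossed the sets. The ribosomal protein probe Rpl37l1 fell into a higher and a lower state over the 30 arrays, 16 in the higher and 14 in the lower. In the Pmch-high set 3 arrays were in the higher state, and female minimal 2 and female minimal 3 in the lower. In the Pmch-low set 4 were in the higher state, and female extreme 2 in the lower. Whether this state is technical was not tested. Restricting the sets to arrays of the higher state left 3 against 4. There 35 of 14300 probes parted by 0.5 or more, beside 6 with 5 against 5. Smaller sets part more easily by size alone, so the rise is not read as a clearer difference. In that subset Cartpt differed by 0.79 log2 units, Hcrt by 0.57, Fkbp9 by -0.68 and Grip2 by 0.51. For Cartpt, Fkbp9 and Grip2 overlap could not arise there, because the subset is part of the main sets. Hcrt did not overlap in the subset. Female minimal 2, the high array in which Hcrt lay among the low ones, was not part of it. Th differed by 0.45 there with overlap. Tagln at -0.45, Timp1 at -0.36 and Ifi27 at -0.40 no longer parted the arrays by 0.5.

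The 20 arrays that the rule did not use allowed a test of covariation with Pmch. A slope on the Pmch level, fitted with limma beside the group means, passed the adjusted threshold of 0.05 for 0 of 14300 probes (0.0%). At an unadjusted p under 0.05 there were 280, fewer than the share of 0.05 that no relation would give. Pmch spanned only 7.10 to 8.79 log2 intensity in these arrays. The smallest adjusted p was 1. Avp had a slope of 1.20 ± 0.47 (SE) log2 units per log2 unit of Pmch, Oxt 0.71 ± 0.39 and Th 0.18 ± 0.08, each at a limma adjusted p of 1. Cartpt had a slope of 0.19 ± 0.41, Hcrt of 0.04 ± 0.09 and Grip2 of 0.02 ± 0.10. Pmch varied little in the 20 arrays (SD of 0.48), and the SE of the Cartpt and Hcrt slopes exceeded the estimates. The fit therefore could not decide whether the association of Cartpt and Hcrt with Pmch among the exposed female rats was present there. Of 35 genes taken from those that parted the sets, the 20 most positive and the 15 most negative named ones, 16 had a slope of the same sign as their difference. Over all probes 49.62% of the slopes were positive.

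Exposure was compared with no exposure in female rats, over the mean of the minimal and extreme groups, a comparison in which 984 of 14301 probes (6.88%) passed in the limma fit, 440 (3.08%) higher and 544 (3.8%) lower. Pmch was on average 2.43 ± 0.79 (SE) log2 units higher in exposed rats, which is given without a test because the exposed values chose the sets. Hcrt was higher by 0.44 ± 0.15 and did not pass (limma adjusted p = 0.0719), nor did Resp18 at 0.64 ± 0.21 (limma adjusted p = 0.0672). Cartpt differed by 0.54 ± 0.40, Avp by 1.03 ± 0.55 and Slc6a3 by 0.92 ± 0.55, all at limma adjusted p values of 0.296 or more. Of the 9 lateral hypothalamic genes tested other than Pmch, 0 passed, 6 estimates were positive and the median was 0.19 log2 units. Of 13 peptide genes outside the lateral area 0 passed, and of 16 enriched genes 0.

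The values of Hcrt and Resp18 depended on single arrays. Hcrt passed without female minimal 4 (0.53, limma adjusted p = 0.0141), female extreme 2 (0.50, limma adjusted p = 0.0409) or female control 3 (0.52, limma adjusted p = 0.0483), and Resp18 without female minimal 4 (0.74, limma adjusted p = 0.0206). Female minimal 4 and female extreme 2 are Pmch-low arrays with the lowest Hcrt of the 10, at 6.69 and 6.80 log2 intensity. All 5 female control arrays were in the lower Rpl37l1 state. Among the 3 exposed arrays of that state Pmch was 11.21, 13.73 and 8.38 log2 intensity, against 7.19 to 8.79 in the controls. With the Rpl37l1 level as a covariate Resp18 differed by 1.01 (limma adjusted p = 0.00794), Calb2 by 1.10 (limma adjusted p = 0.00922), Slc6a3 by 2.09 (limma adjusted p = 0.0143) and Th by 1.75 (limma adjusted p = 0.0306). Hcrt differed by 0.41 in that fit (limma adjusted p = 0.176). Without the covariate Resp18, Calb2, Slc6a3 and Th did not pass, at limma adjusted p of 0.0672, 0.317, 0.365 and 0.452. No female control was in the higher state, so the covariate and exposure cannot be fully told apart in female rats. Slc6a3 and Th reached 12.60 and 11.99 log2 intensity in female minimal 2, and the covariate fit was not run without that array.

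Between the extreme and minimal responses 17 of 14301 probes (0.119%) passed in the limma fit, 9 (0.0629%) higher and 8 (0.0559%) lower in extreme. No gene of the hypothalamic lists was among them. Pmch had an estimate of -0.90 ± 0.91 (SE) log2 units, given without a test. Hcrt differed by -0.15 ± 0.17, Cartpt by -0.52 ± 0.46 and Lhx1 by -0.03 ± 0.20. Avp differed by -1.02 ± 0.63 (limma adjusted p = 0.635) and Oxt by -0.92 ± 0.49 (limma adjusted p = 0.576). Slc6a3, the dopamine transporter gene, had an estimate of -1.55 ± 0.63 (limma adjusted p = 0.451). Without the 5 Pmch-high arrays, which leaves 2 minimal against 3 extreme rats, the count was 7 in place of 17. With the Pmch level as a covariate it was 17.

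**Figure D5:**
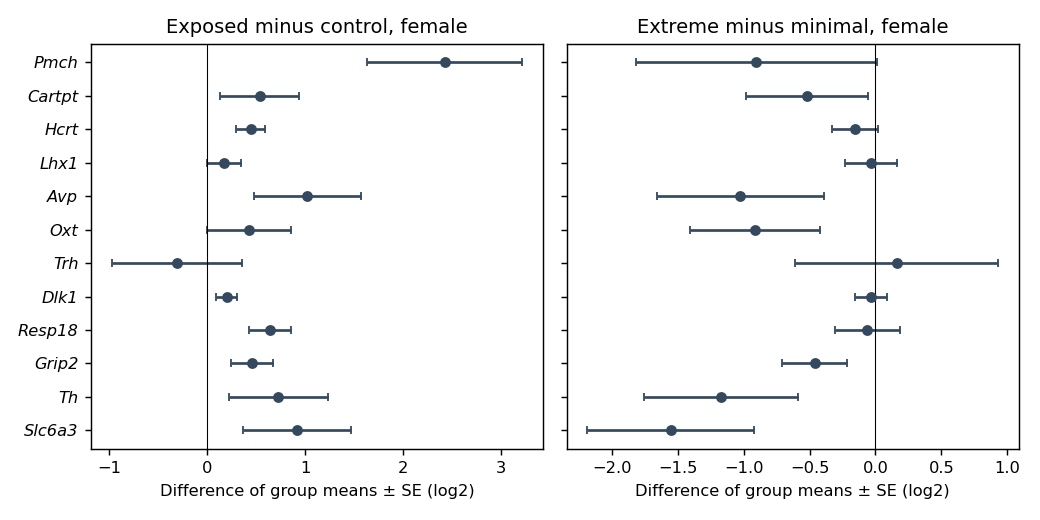
Estimated difference in log2 intensity (horizontal axes) of exposed minus control and of extreme minus minimal female rats for 12 genes. Points are limma estimates and bars their SE, and 0 of the 11 genes other than Pmch passed the adjusted threshold of 0.05.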

How the data were processed

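Column-purified total RNA was turned into biotinylated cRNA for Illumina rat BeadChips, per the labels' protocols. The authors' deposited table gives a log2 intensity for each of 22523 probes. How background was corrected and which software normalized the arrays is not given in the sources used here. The 30 columns share a median of 7.02 and other percentiles, as after quantile normalization, and genes were not centred. A deposited table of 60 signal and detection p columns was not used, since its column names match no sample, so detection calls were not used. The number of arrays limits the precision. Gene names came from the platform annotation, with 13793 probes carrying 1 symbol, 0 several and 8730 none, and 13752 matched the RefSeq table of GRCr8.

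A probe entered when 3 or more arrays had it over their median, which left 14301. Groups came from the titles and replicate numbers from the sample descriptions, and the labels give each array its own rat. The high and low sets were described by means, SD and overlap, with a difference of 0.5 log2 counted. Slopes and group differences were fitted with limma 3.58.1 in R 4.3.3, with Benjamini-Hochberg adjustment over all probes and a threshold of 0.05, and the scripts were tested on simulated data. Group comparisons used all 30 arrays, and the slope used 20. The members, lists and tests were chosen with earlier results of these data known. Named genes were all measured genes of 4 hypothalamic lists, the 20 highest and 15 lowest differences among named genes without overlap, the 10 smallest p of the slope and up to 4 genes of each other list. Other genes are named where a count or list called for it, after their values were seen. For genes with several probes the brightest was used. Same-numbered female minimal and extreme rats deviated together (correlations of 0.142 to 0.681, above 0.1 in 5 of 5 pairs). Same-numbered female control and extreme rats did not (-0.505 to -0.138), nor did control and minimal rats on average (mean of -0.169). A deviation shared by number was therefore read only for minimal and extreme rats, and the main fits did not use it. In numbers 1, 2, 4 and 5 the minimal and the extreme rat were also in the same Rpl37l1 state. Whether that state gave the correlations was not tested. The sex labels were not checked. Alternatives covered filters, normexp, cuts, array weights, covariates, the replicate block and leaving out arrays. The higher-state subset and the slope without the highest Pmch arrays were added after seeing the data.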

Additional observations from a re-analysis of the deposited data

Results flagged for a closer look

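In groups of 5, a value was picked out when its gap to the nearest other rat, over the range of the group, exceeded Dixon's 95% limit. This held for 22 of 132 sets looked at, over 22 genes in 6 groups. Chance gives about 5 percent for unselected values. These genes include Pmch and were chosen with earlier results of these data known, so the count is not read as an excess over chance. In exposed female rats the values were Lhx1 in female extreme 3 (8.06 log2 intensity), Dlk1 in female minimal 2 (7.74), Slc18a2 in female minimal 2 (8.90), Slc6a3 in female extreme 3 (7.70) and Rpl37l1 in female extreme 2 (9.54). All but the last belong to Pmch-high arrays. Pmch itself stood apart in male minimal 2 at 8.46, together with Trh in the same array at 7.93.

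Male control 3 stood apart for Nts (9.04), Gal (7.59), Oxt (10.52), Trh (8.19) and Adora2a (12.02). Male extreme 4 did so for Hcrt (7.13), Avp (8.92) and Oxt (8.09), and male extreme 2 for Cartpt (9.75), Nts (8.21) and Adora2a (11.69). Female control 3 did so for Cartpt (7.71), Slc6a3 (7.14) and Adora2a (13.56), and male minimal 1 for Rpl37l1 (9.68).

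Limma's interaction term with sex was looked at for exposed minus control and for extreme minus minimal, 50 values in all. It passed for 2, both in exposed minus control, where 621 of all 14301 probes (4.34%) passed. Hcrtr2 had been added by name to the genes looked at, so these 2 are not read as an excess over that share. Hcrtr2 differed by 0.40 ± 0.11 (SE) log2 units, female minus male (limma adjusted p = 0.0328). Rpl37l1, the probe of the array state, differed by 3.47 ± 0.75 (limma adjusted p = 0.00888). All female controls were in the lower and all male controls in the higher state, so sex, exposure and state cannot be fully told apart for either gene.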

How the results depend on the processing

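The 6 probes that parted the Pmch sets became 0 at a difference of at least 1, 20 after normexp and 35 with arrays of the higher state only. The 35 came from 3 against 4 arrays, and smaller sets part more easily by size alone, as also when single arrays are left out. Without single arrays the count ran from 3 (female minimal 5) to 24 (female extreme 1). It was 13, 5, 8 and 11 without female minimal 1, 2, 3 and 4, and 22, 12, 19 and 15 without female extreme 2, 3, 4 and 5. Cartpt and Grip2 differed by at least 0.5 in 10 of 10 such sets, Fkbp9 in 9, Ifi27 in 8, and Tagln and Timp1 in 7. Overlap could not arise for these genes there, because those sets are parts of the main ones. Normexp gave larger differences for Cartpt (1.66), Hcrt (1.18), Lhx1 (1.20) and Dlk1 (0.81), and the second gap smaller ones for Grip2 (0.35), Dlk1 (0.04), Th (0.30) and Slc18a2 (-0.18). The causes were not tested.

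The slope on Pmch gave 0 calls under every alternative run, and every left-out array gave 0. The 17 calls of extreme minus minimal became 10 with array weights, 7 with female arrays alone, 30 with the Rpl37l1 covariate and 7 without the Pmch-high arrays, and 12 to 28 without single arrays (28 without female extreme 4). They stayed at 17 with Pmch as a covariate. The 984 calls of exposed minus control became 421 with female arrays alone, 521 with Pmch as a covariate and 773 without the Pmch-high arrays, and 439 (without female control 2) to 1241 without single arrays. With array weights Hcrt passed (0.53, limma adjusted p = 0.0115). The replicate block, which used the replicate number across all 6 groups, gave 21 and 935 calls in these comparisons and changed the call of no hypothalamic gene. Hcrt and Lhx1 lay near the low end of the scale, where the deposited values may understate differences.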
